A study of Mus musculus with 2 samples.

Results

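The genes described here are 9 members of the extrinsic and intrinsic cell death pathways: the death receptors Tnfrsf10b and Fas, the initiator caspases Casp8 and Casp9, the apoptosome genes Apaf1 and Cycs, the antagonist Diablo, and the inhibitors Birc2 and Xiap. They were chosen by name, as protein-coding genes of the mm10 annotation, and are 9 of 21866 protein-coding genes with a start site. Binding of CHOP, the stress-induced C/EBP-family factor encoded by Ddit3, was measured by chromatin immunoprecipitation and sequencing in liver of wild-type (WT) mice given tunicamycin at 1 mg/kg body weight into the peritoneum for 8 h. Tunicamycin blocks N-linked glycosylation and so loads the endoplasmic reticulum with misfolded protein. The single immunoprecipitate came from chromatin combined from 3 mice, and 1 input library from tunicamycin-treated WT liver served as control. There was no replicate, no untreated liver and no liver without CHOP, so spread between animals cannot be given and no difference between conditions can be measured. In whole liver, binding in few cells and weak binding in many cannot be told apart. Age and sex are not given in the sources used here, and a peak list holds no expression by which the liver label could be checked.

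Death receptors sit in the plasma membrane and, once bound by ligand, gather the adaptor FADD and caspase-8, which then activates the executioner caspases. In the intrinsic route, mitochondria release cytochrome c, which assembles with APAF1 and caspase-9 into the apoptosome, and SMAC/DIABLO, which displaces the inhibitor of apoptosis proteins from caspases. CHOP is known as a driver of cell death under prolonged endoplasmic reticulum stress, and the TRAIL receptor DR5, the product of Tnfrsf10b, is among the genes it has been reported to induce. The comparison asks where CHOP peaks lay along this chain of genes in stressed liver.

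Among these 9 genes, CHOP promoter peaks were found at the intrinsic, mitochondrial arm and at 1 inhibitor gene, and at neither death receptor. A promoter peak is one whose summit, the position of most reads, lay within 1 kb of a start site of a protein-coding transcript. By that rule Casp9, Apaf1, Cycs, Diablo and Birc2 had a promoter peak, 5 of the 9 genes, against 27.9% of all protein-coding genes. The wider list of pathway genes described below is grouped by role, not by arm, and its groups showed no such split. There, 5 of 12 receptor, ligand and adaptor genes had a promoter peak (41.7%). So did 3 of 7 genes of mitochondrial release and caspase substrates (42.9%). Tnfrsf10b and Xiap had distal peaks only, meaning summits beyond 1 kb and up to 50 kb away for which they had the nearest start site; 18.0% of all protein-coding genes had such a peak. Fas and Casp8 had neither, so that 7 of the 9 genes had a peak of either kind, against 38.2% of all protein-coding genes. The 5 promoter summits lay at most 150 bp from a start site, and the nearest summit outside the limit was that of Xiap at 1319 bp.

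The sequences at these summits are shown first, because they show which letters lay under the strongest and weakest promoter peaks. They are read 5′ to 3′ on the strand of the gene from the GRCm38.p6 reference, and capitals mark the motif named after each. A window of 50 bp on each side of the summit (101 bp in all) was searched on both strands for the C/EBP-ATF composite core TGATGCAA, the C/EBP palindrome TTGCGCAA, the cyclic AMP response element (CRE) TGACGTCA and the short CRE TGACGT, which lies inside the full one. The AP-1 motif TGANTCA, the GC box GGGCGG, the E-box CACGTG, the ETS motif CCGGAAG, the NF-Y motif CCAAT, the NRF1 palindrome, the YY1 motif AAGATGGC and the p53 decamer were searched in the same way. The full 101 bp window is given for Apaf1, where it lies wholly upstream of the start sites of the gene. For the other 4 genes 30 bases are given, so that the Casp9 excerpt does not reach its summit.
Diablo, GC boxes (chr5:123524038-123524067, minus strand): cggccgcggtagcagaGGGCGGGCGGcggc
Apaf1, GC box (chr10:91082782-91082882, minus strand): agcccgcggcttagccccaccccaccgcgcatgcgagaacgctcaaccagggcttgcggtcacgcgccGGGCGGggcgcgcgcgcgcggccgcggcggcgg
Cycs, GC box (chr6:50566512-50566541, minus strand): gacGGGCGGaacaagtgtggttgcaccgac
Casp9, ETS motif (chr4:141793803-141793832, plus strand): gaacccgagggCCGGAAGcggacagaaccc
Birc2, CRE (chr9:7837069-7837098, minus strand): gtctgcTGACGTCAcctcaacggcccgctg

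Of the 5 promoter summits, 1 had a C/EBP-type or CRE-type match within 50 bp. It was that of Birc2, where the CRE was centred 13.5 bp upstream of the summit. Among all 6306 promoter summits of the list, 3.87% had any of these 4 motifs, and 0.856% had the full CRE. No composite core or C/EBP palindrome lay in the windows of the 5 genes, as was so for nearly all promoter summits, of which 0.84% held the core and 0.159% the palindrome. GC boxes, the letters bound by SP/KLF factors, were present at Diablo, Apaf1 and Cycs, and 45.4% of all promoter summits held one. The ETS match of Casp9 was centred 43 bp upstream of its summit, and 4.12% of promoter summits held such a match. These matches describe letters and are not evidence of a bound site. Only exact matches were searched, so sites that differ from a motif by a letter were not counted.

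Diablo encodes SMAC, which is released from mitochondria and frees caspases from their inhibitors. Its promoter peak on chromosome 5, 123523727 to 123524593, rested on 59 reads at the summit over a local background of 1.11 reads. The authors' fold enrichment, which adds the same small constant to both, was 28.4 (95% exact Poisson interval 21.7 to 36.5, counting error only). The summit lay 49 bp inside the gene from the nearest of 4 start sites, in sequence annotated as intron, and the peak, 867 bp wide, covered all 4. A gene model that overlaps Diablo, Gm49027, also spans the summit. The fold exceeded that of 98.0% of promoter peaks, and the peak was wider than 92.8% of them. For comparison, Ppp1r15a, the locus at which the submitters tested their antibody, had a fold of 40.6 (interval 31.2 to 51.9), which overlaps the interval of Diablo. Those of Ddit3 (60.9, interval 49.2 to 74.5) and of Trib3, a stress-induced pseudokinase (106, interval 90.0 to 123), lay above it.

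**Figure D1:**
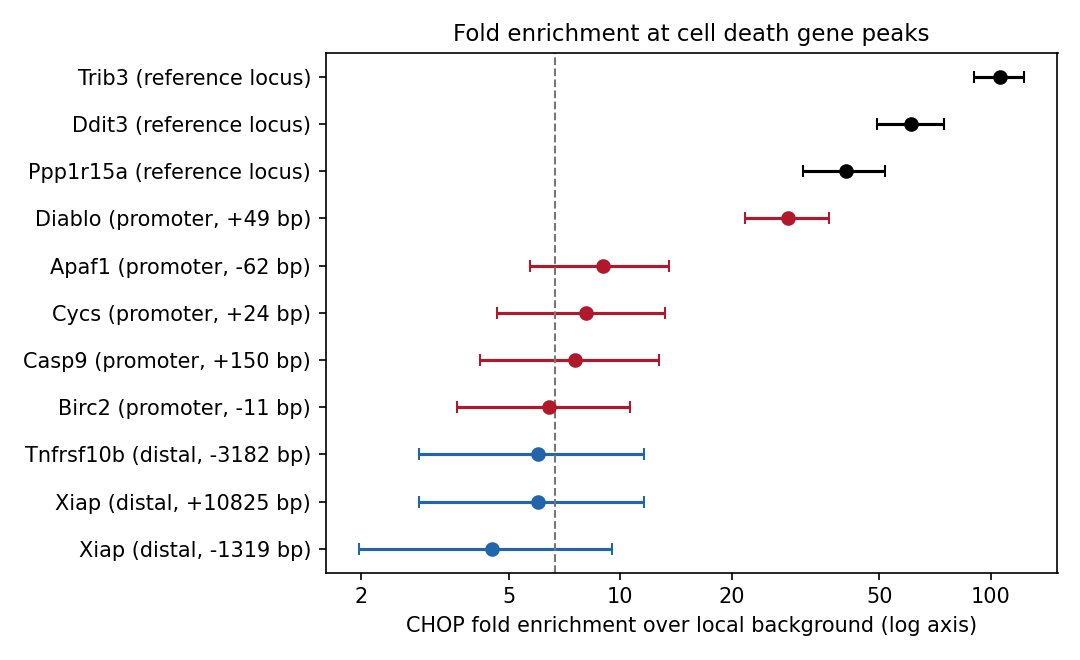
Fold enrichment of CHOP over the local background (x axis, log scale) at the 8 peaks of the 9 genes and at the strongest promoter peak of 3 reference loci, with points for the authors' fold, bars for the 95% exact Poisson interval on the summit reads, red for promoter and blue for distal peaks, and distances from the nearest start site in brackets. The dashed line is the median of all promoter peaks, 6.65; Diablo at 28.4 stands above the other 4 promoter peaks, whose intervals all include that median.

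The apoptosome genes had promoter peaks with folds above the promoter peak median of 6.65, a value that their intervals include. Apaf1, the scaffold that binds cytochrome c and caspase-9, had a peak on chromosome 10, 91082670 to 91083037, with 21 reads at the summit and a fold of 8.97 (5.71 to 13.5), above 73.5% of promoter peaks. Its summit lay 62 bp upstream of the outermost of 4 Apaf1 start sites and 108 bp upstream of a start site of Ikbip, which is transcribed the other way. The peak covered start sites of both genes and its summit lay between them, so position cannot assign it to either. Such sharing was found for 663 of the promoter summits (10.5%).

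Cycs encodes cytochrome c, an electron carrier of the respiratory chain that becomes a death signal in the cytosol. Its peak on chromosome 6, 50566292 to 50566829, had 14 summit reads and a fold of 8.07 (4.66 to 13.2), above 67.0% of promoter peaks, with the summit 24 bp downstream of its only start site in the 5′ UTR. Transcripts of the antisense gene 5430402O13Rik start 129 bp and 224 bp from the summit on the other strand. The peak covered both of these starts, so position alone does not assign it to Cycs. The peak of Cycs also covered a full CRE, centred 220.5 bp upstream of the summit and so outside the 101 bp window, and a short CRE centred 67.5 bp upstream.

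Casp9, the initiator caspase of the apoptosome, had a peak on chromosome 4, 141793558 to 141793927, with 12 summit reads and a fold of 7.53 (4.17 to 12.7). The fold exceeded 61.7% of promoter peaks. The summit lay 150 bp downstream of the nearer of 2 protein-coding start sites, in a coding exon, and was the farthest from a start site among the 5 genes, the median over all promoter summits being 108 bp. Birc2 encodes cIAP1, a ubiquitin ligase that keeps TNF receptor signalling from turning to cell death. Its peak on chromosome 9, 7836951 to 7837289, had 13 summit reads and a fold of 6.40 (3.62 to 10.6), above 46.2% of promoter peaks, with the summit 11 bp upstream of the outermost of 3 start sites.

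In descending order the promoter folds were those of Diablo, Apaf1, Cycs, Casp9 and Birc2. The interval of Diablo did not overlap that of any of the other 4. The intervals of Apaf1, Cycs, Casp9 and Birc2 all overlapped one another and the median of 6.65, so the order among these 4 genes is within counting error. The median over the 5 genes was 8.07, beside 6.86 for the highest promoter fold of every protein-coding gene that had one.

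**Figure D2:**
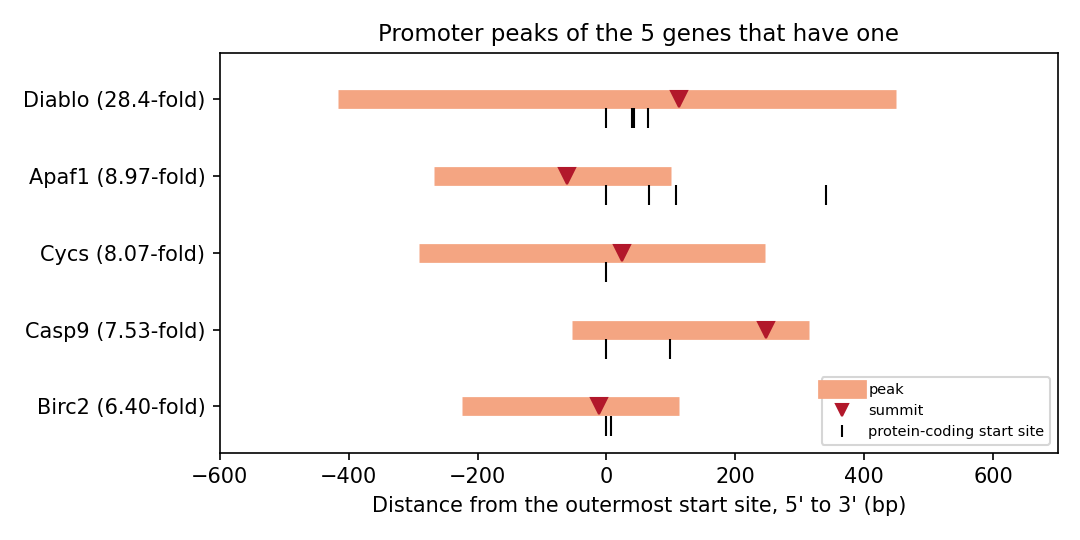
Position of the promoter peaks of Diablo, Apaf1, Cycs, Casp9 and Birc2 relative to the outermost protein-coding start site of each gene (x axis, bp, positive inside the gene), with bars for the deposited peak, triangles for its summit and ticks for start sites within 600 bp. Every peak overlapped at least 1 start site, and the summits of Apaf1 and Birc2 lay upstream while those of Diablo, Cycs and Casp9 lay inside the gene.

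Tnfrsf10b, the mouse TRAIL death receptor, had no summit within 1 kb of its single start site on chromosome 14 at 69767472. The nearest peak, at 69764270 to 69764447, had its summit 3182 bp upstream, inside the long noncoding RNA gene 4930480K23Rik. With 7 reads at its summit, its fold was 6.0 (2.86 to 11.6). Of its 178 bp, 54.5% are repeat-masked in the reference, the summit base included. Among the 7851 peaks outside promoters 23.2% were masked over 50% or more of their length, and among promoter peaks 1.05%. Whether reads from repeat copies contribute to the peak was not tested. The window held no exact match to any of the 12 motifs, and near matches were not searched. The 30 bases around the summit show its AT-rich letters (34.8% GC over the peak).
Tnfrsf10b, distal summit (chr14:69764276-69764305, plus strand): gagatgcaaggatggttcaacatacagaaa

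Xiap, whose protein directly binds and inhibits caspases, also had no promoter peak. It has 6 start sites on the X chromosome, where 8.44% of genes had a promoter peak. A peak at 42066445 to 42066616 had its summit in an intron, 1319 bp upstream of the start site at 42067836 and 6123 bp downstream of the outermost one, with 5 reads and a fold of 4.50 (1.97 to 9.50). That fold exceeded 10.2% of promoter peaks. A second intronic peak at 42081996 to 42082167, 10825 bp downstream of the nearest start site, had 7 reads, a fold of 6.0 (2.86 to 11.6) and repeat masking over 95.3% of its length. Both were 172 bp wide, the smallest width in the list, which 2715 peaks (19.2%) share. The nearer summit had an AP-1 match centred 36 bp downstream, printed here because it is the only match to a stress-activated bZIP motif at the distal peaks of the 9 genes, and a p53 decamer centred 18.5 bp upstream. Of summits outside promoters, 3.96% had an AP-1 match and 3.06% a p53 decamer in the same window.
Xiap, AP-1 match (chrX:42066467-42066567, plus strand): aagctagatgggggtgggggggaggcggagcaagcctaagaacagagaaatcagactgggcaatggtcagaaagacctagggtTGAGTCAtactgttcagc

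All 3 distal peaks had a background of 0.333 reads, the genome-wide floor, at which 1 read moves the fold by much, and all rested on fewer reads than the median peak outside promoters (9 reads). Their intervals overlapped those of Apaf1, Cycs, Casp9 and Birc2. Distance alone does not tie a distal peak to a gene.

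Fas, the receptor of FAS ligand and the main death receptor of hepatocytes, had no peak of either kind, like Casp8, and lay far from any summit. The summit nearest to either of its 2 start sites on chromosome 19 (34290666 and 34290682) lay 421334 bp away, and only 6.24% of protein-coding genes were farther from any summit, the median being 27085.5 bp. Casp8, which is recruited to activated Fas, had no summit within 50 kb of any of its 4 start sites on chromosome 1. The summit nearest to it lay 76009 bp upstream, in an intron of Cflar, and 30.3% of genes were farther from one. Cflar encodes c-FLIP, which blocks caspase-8 at the receptor. That gene had a promoter peak with a fold of 7.53 (4.07 to 13.0, 11 reads) besides the intronic one at 16.5-fold (10.5 to 24.8, 21 reads). The lowest number of summit reads in the list was 4, and read coverage at genes without a peak was not analysed here, so a missing peak means that none was called, not that CHOP was absent.

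**Figure D3:**
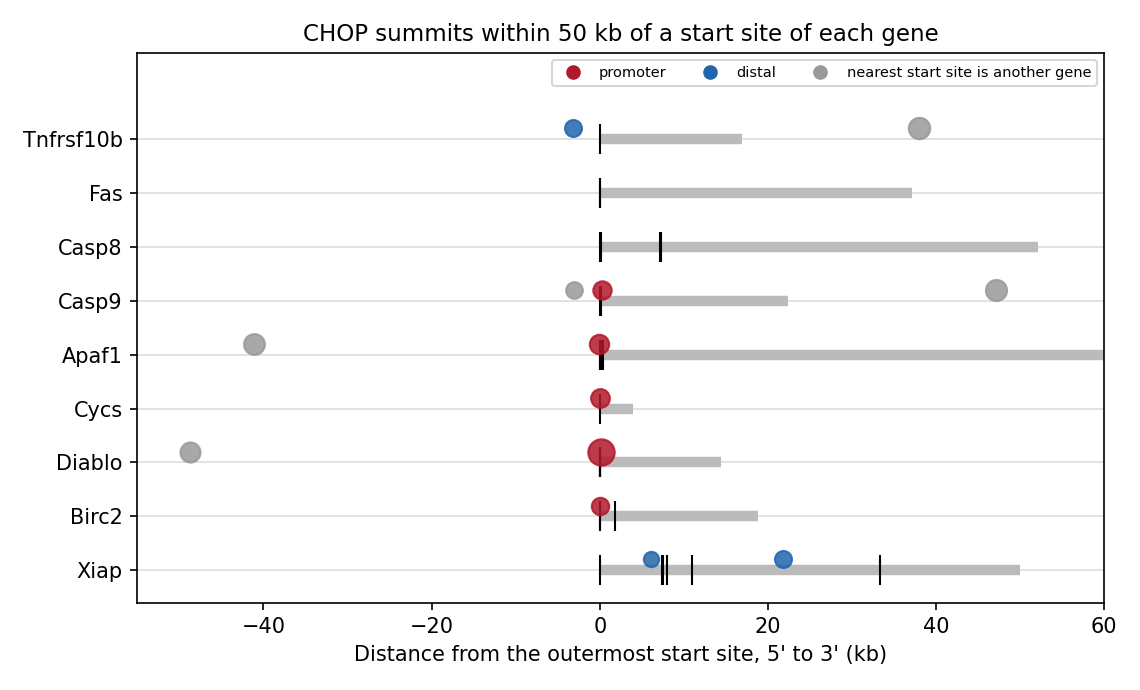
CHOP summits within 50 kb of a start site of each gene (x axis, kb from the outermost start site, positive in the direction of transcription), with dot area growing with fold, black ticks for protein-coding start sites and grey bars for the gene, cut at the right edge for Apaf1. Red dots are promoter and blue dots distal peaks, grey dots have the start site of another gene nearer, and no dot is drawn for Fas or Casp8.

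Presence of a promoter peak went with the CpG content of the promoter in these genes as in the genome. Protein-coding genes were ranked by the ratio of observed to expected CpG within 500 bp of the outermost start site and divided into 4 classes of equal size, class 4 having the highest ratios. The ratio was 0.833 at Apaf1, 0.847 at Cycs, 0.869 at Birc2, 0.891 at Diablo and 0.909 at Casp9, so that all 5 genes with a promoter peak fell in class 4. In that class 66.0% of all genes had a promoter peak. The 4 genes without one lay lower. Tnfrsf10b at 0.687 and Casp8 at 0.562 fell in class 3, where 31.8% of genes had a peak, Fas at 0.428 in class 2 (10.1%) and Xiap at 0.181 in class 1 (3.71%). At 4 of its other start sites, from 42067836 to 42071325, Xiap had ratios of 0.246 to 0.574, in classes 2 and 3. Casp8 had ratios of 0.273 and 0.282 at its start sites 58802502 and 58802653, in class 2. Birc2, which had a promoter peak, had 0.246 at its inner start site 7835255, also in class 2. The part of CpG content in the promoter peaks of these genes was not tested.

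**Figure D4:**
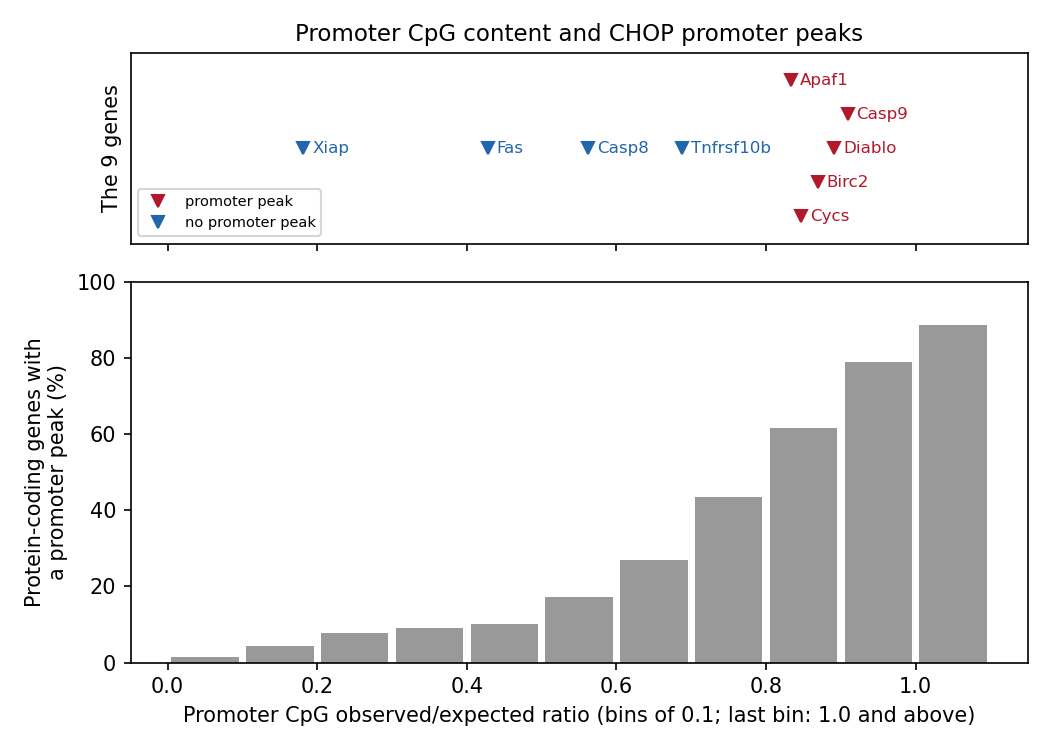
Promoter CpG observed/expected ratio of the 9 genes (upper panel, red with and blue without a promoter peak, vertical position without meaning) and the share of all protein-coding genes with a CHOP promoter peak in bins of that ratio (lower panel, percent). The share grows from 1.58% in the lowest bin to 88.6% in the highest, and the 5 genes with a peak lie between 0.833 and 0.909.

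Promoter sequences of RefSeq (GRCm38.p6, 250 bases before to 50 after each start) were matched for 8 of the 9 genes; Tnfrsf10b was not among them. A full CRE, present in 1.79% of the 32851 promoters of that table, was found at Birc2 and at Cycs, and both copies lay inside the CHOP peak of the gene. At Xiap 1 of its promoters held a short CRE, which 7.51% of promoters hold. The promoter of Fas, without a CHOP peak, held GC boxes (35.7% of promoters), an AP-1 match (7.81%) and an E-box (7.15%). At Casp8 the only match found was an NF-Y motif (37.4%), in the promoter of its inner start site 58802502. None of the matched promoters held the C/EBP-ATF composite core (0.895% of all promoters) or the C/EBP palindrome (0.183%).

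Among 30 other genes of the same pathways, 11 had a promoter peak (36.7%, beside 27.9% of all protein-coding genes), with a median fold of 6.75. Of 12 further receptor, ligand and adaptor genes 5 had one. These were Traf2, an adaptor of TNF receptors (10.2-fold, 6.43 to 15.5), Cflar (above), Tnfrsf1a, the main TNF receptor (6.75-fold on 8 reads), Ripk1, the kinase that passes TNF receptor signals to survival or death (4.76-fold, at a promoter shared with Serpinb6a), and Fadd, whose value fell below these and which was named after the values were seen. The ligand genes Tnf, Fasl and Tnfsf10 and the receptors Tnfrsf1b, Tnfrsf21 and Tnfrsf25 had none, nor did Tradd. Neither Tnfsf10, the TRAIL gene, nor Fasl, the FAS ligand gene, had a promoter peak, as was so for the receptors of both. The CpG ratios of Tnfsf10 (0.219) and Fasl (0.205) fell in class 1, where 3.71% of all genes had a promoter peak.

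Among further caspase genes, Casp2, a caspase linked to stress signalling, had an 8.37-fold promoter peak (4.83 to 13.7) with its summit 1 bp upstream of its start site. Casp6, an executioner gene, and the inflammatory caspases Casp1, Casp4 and Casp12 had none. Of 7 genes of mitochondrial release and caspase substrates 3 had one, among them Endog, a mitochondrial nuclease (5.80-fold), and Parp1, a DNA damage sensor cut by caspases (5.02-fold), both below the median fold of 6.75. Htra2, which like DIABLO opposes inhibitors of apoptosis, had none, and neither did Aifm1, Septin4 and Dffa. Of 4 further inhibitor genes only Birc6, a giant ubiquitin ligase that restrains caspases, had promoter peaks, the stronger at 8.27-fold (4.93 to 13.1). Birc3, the neighbour and close relative of Birc2, had none, nor did Birc5 and Naip2.

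Of the genes of this wider list named here, Traf2 (10.2) and Casp2 (8.37) had the promoter folds nearest to that of Diablo, and their intervals ended below its lower bound of 21.7.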

How the data were processed

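Per the labels' protocols, reads were aligned to mm10 with Bowtie (at most 2 mismatches), stacks of more than 2 reads per position and strand were reduced, and the alignments passed through SAMtools 1.9 and Sambamba 0.7.1. Peaks come from MACS2 2.1.2 with default settings on the pooled library, per the submitters' processing notes. For each of 14157 peaks the authors deposited a fold, with its −log10 p and −log10 q. The fold is a ratio of summit pileup to local background after the same small constant is added to both. It is therefore lower than the plain ratio of the 2 read numbers. The deposited score was not used. Summit reads and background were recovered from fold and −log10 p, as MACS2 defines both (largest residual 3.13e-05), by a routine tested on simulated data. The pileup ran from 4 to 329 reads (median 11). Exact Poisson intervals at 95% keep the background fixed and cover counting error only, since there was 1 immunoprecipitated library. They make no allowance for the summit being the position of most reads. Reads have no molecular identifiers, so duplicate reads that remain cannot be told apart and the intervals may be too narrow. The depth of the whole library is unknown.

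Start sites are those of protein-coding transcripts in GENCODE M21. Of 2 genes named Ddit3 the longer was used. No test was run, since there was 1 library. The 9 genes and the lists were chosen with earlier results of these data known. Genes named are the 9, 3 reference loci, up to 4 per role of the 30 others, the 3 of these nearest to the highest fold among the 9, and neighbours of their peaks, apart from a few genes not reported here. Alternatives were other promoter distances, peak thresholds, start-site sets and motif windows. Computations used Python 3.11.15 (pyfaidx 0.9.0.4, scipy 1.17.1, pandas 2.3.3, numpy 2.4.6, matplotlib 3.10.9).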

Additional observations from a re-analysis of the deposited data

How the results depend on the processing

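The 5 genes with a promoter peak kept it with summits within 500 bp, with −log10 q or fold of at least 5, with all annotated transcripts, with the outermost start site only, with GENCODE basic transcripts and with any overlap of the peak with the 1 kb zone. With summits within 3 kb Xiap joined them (6 genes). Over these alternatives all protein-coding genes with a promoter peak numbered 4588 to 6633. Of the 30 other pathway genes 7 had a promoter peak with −log10 q of at least 5, where Dffb, Fadd, Parp1 and Ripk1 dropped out, and 8 to 12 under the other alternatives. Tnfrsf10b and Xiap were the members with a distal peak under all 5 alternatives tried, limits of 20 kb and 100 kb included. Among all protein-coding genes 2915 to 4470 had one. The nearer Xiap peak (−log10 q 2.90, 4.50-fold) failed both thresholds of at least 5. There Xiap kept a distal peak only through the one repeat-masked over 95.3% of its length. With 100 bp on each side of the summit, 2 genes had a C/EBP-type or CRE-type match, Cycs (a short CRE) having been added, beside 7.79% of promoter summits. Ranking by −log10 q left Diablo above 98.1% of promoter peaks. No paired analysis was possible because 1 immunoprecipitated library has no replicate. Reads at the summit limit the precision: the other 7 peaks of the 9 genes rest on 5 to 21 reads.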

Other observations

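Within 50 kb of the start sites of the 9 genes lay 5 further summits whose nearest start site belongs to another gene. They were nearest to Rhobtb2 (12.4-fold, 8.34 to 17.9, 37937 bp downstream of the start of Tnfrsf10b), Dnajc16 (5.65-fold, 3087 bp upstream of the outermost Casp9 start), Ctrc (11.9-fold, downstream of Casp9), Slc25a3 (11.3-fold, upstream of Apaf1) and Vps33a (9.89-fold, upstream of Diablo). The Rhobtb2 peak had a higher fold and more reads (27) than the peak assigned to Tnfrsf10b (7).

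Of the inhibitor genes without a promoter peak, Naip2 and Birc5 had a peak of high fold farther from their start sites, and both peaks were singled out after the values were seen. A peak inside the gene body of Naip2, on chromosome 13 from 100152463 to 100153254, had a fold of 69.2 (57.6 to 82.4, 123 reads), but its nearest start site, 27972 bp away, is that of Smn1. The Naip genes are related copies, and how reads were divided among them was not tested. Upstream of Birc5, which encodes survivin, a peak 6082 bp from the start site had a fold of 22.6 (15.7 to 31.6, 32 reads) and was repeat-masked over 77.9% of its 312 bp.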
